A study of Mus musculus with 12 samples.

Results

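The genes described here encode ion channels, receptors for neurotransmitters and proteins of the synapse. They were taken by symbol from the deposited tables: potassium (Kcn), sodium (Scn), calcium (Cacn) and HCN channel genes, receptor genes for glutamate (Gria, Grin, Grik, Grm), GABA (Gabr), acetylcholine (Chrn), glycine (Glr) and serotonin (Htr), synaptotagmins (Syt), and neurexins and neuroligins (Nrxn, Nlgn). The symbols found 64 of the 2704 genes that stand in any of the 4 tables. Of these, 61 were in the expression table of neural progenitor cells (NPC), 1 was in that of mouse embryonic fibroblasts (MEF), 2 were in the NPC splicing table and 0 in the MEF splicing table. No gene stood in more than 1 of these tables. The symbols also took in 2 genes of another kind: Grina, an NMDA receptor-associated membrane protein gene that encodes no receptor subunit, and Glrx, which encodes a glutaredoxin.

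The cells of all 12 libraries, 3 in each of 4 groups, had the genotype Prmt5 F/FER on a mixed C57BL/6 X 129S1/SvlmJ background. NPC came from cortices at E14.5 and grew as neurospheres with EGF and FGF, and MEF were primary fibroblasts of passage 1 from the same stage. Each cell type received 50 nM 4-hydroxytamoxifen (4-OHT), which induces the Prmt5 knockout, or the same volume of ethanol for 24 h. No group received 4-OHT in cells of another genotype, so the agent and the loss of PRMT5 cannot be told apart. Prmt5 itself stood at 33.4 RPKM (a read count scaled for gene length and library depth) in NPC given ethanol and at 4.92 in those given 4-OHT, per the authors' deposited table, and the MEF values were 21 and 3.76.

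The expression tables hold 1 value per arm, so the spread between the 3 libraries is unknown, as is their depth. They list genes with an unadjusted Cuffdiff p under 0.05 and a change over 1.5-fold, so a gene that is not listed was untested, over that p or less changed. All p-values beside fold changes below are these unadjusted Cuffdiff values. The words "rose" and "fell" are kept for genes whose Benjamini-Hochberg adjusted Cuffdiff p is under 0.05 even if all 55418 gene names of the annotation were tested. Other genes are called listed higher or listed lower with 4-OHT.

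A neuron's firing is set by sodium and calcium channels, which depolarize the membrane, and by potassium channels, which repolarize it or hold it at rest. Some synaptotagmins act in vesicle release, ionotropic receptors turn the transmitter into a current, and neurexins and neuroligins bind each other across the cleft. Many of these genes are also used by progenitors and glia, where potassium channels set the resting potential and AMPA receptors respond to glutamate.

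In NPC the listed channel, receptor and synapse genes were mostly higher after 4-OHT. Of the 61 genes, 51 were higher (83.6%) and 10 lower, while 56.6% of all 2416 listed genes were higher and 43.4% lower. Their median log2 fold change was 1.06, and that of all listed genes 0.66, without matching for level. The bound on the adjusted Cuffdiff p was met by 40 of the 61, among which 34 rose and 6 fell. It was met by 73.7% of all listed genes, of which 53.1% were higher. The annotation names 245 protein-coding genes of these symbols, and the remaining ones are not listed. The number of genes tested is unknown, so no listed share of all tested genes can be set beside this or the family counts below.

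The count differed by level. Across the table, low genes were mostly higher and abundant genes mostly lower with 4-OHT. Under 1 RPKM in both arms, 29 of 32 channel, receptor and synapse genes were higher, beside 80.6% of all listed genes at that level. From 1 to 5 RPKM in the higher arm the count was 10 of 16, beside 63.2%, with medians of 0.63 and 0.71. At 5 RPKM or more it was 12 of 13, beside 39.5%, with medians of the log2 fold change of 0.89 for these 13 and -0.64 for all listed genes at that level. Without Grina and Glrx the count was 10 of 11. All 13 of these genes met the bound on the adjusted Cuffdiff p. A gene can reach a level in the higher arm through its own change, as Cacng5, Scn3b, Kcnk1 and Kcnip1 did with 4-OHT. By the mean of both arms the counts were 33 of 37 under 1 RPKM, beside 80.2% of all listed genes, 10 of 15 from 1 to 5 RPKM, beside 59.1%, and 8 of 9 at 5 RPKM or more, beside 38.1%. Without Grina and Glrx the last count was 6 of 7.

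**Figure D1:**
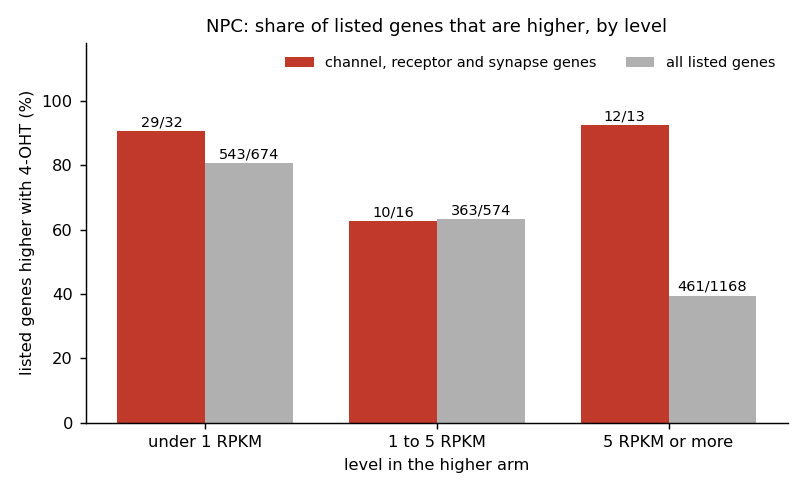
Bars give the percentage of listed NPC genes that were higher with 4-OHT, by RPKM in the higher arm, for the channel, receptor and synapse genes (red) and for all listed genes (grey), with the counts above. The red and grey bars are close between 1 and 5 RPKM (10 of 16 and 363 of 574) and far apart at 5 RPKM or more (12 of 13 and 461 of 1168).

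**Figure D2:**
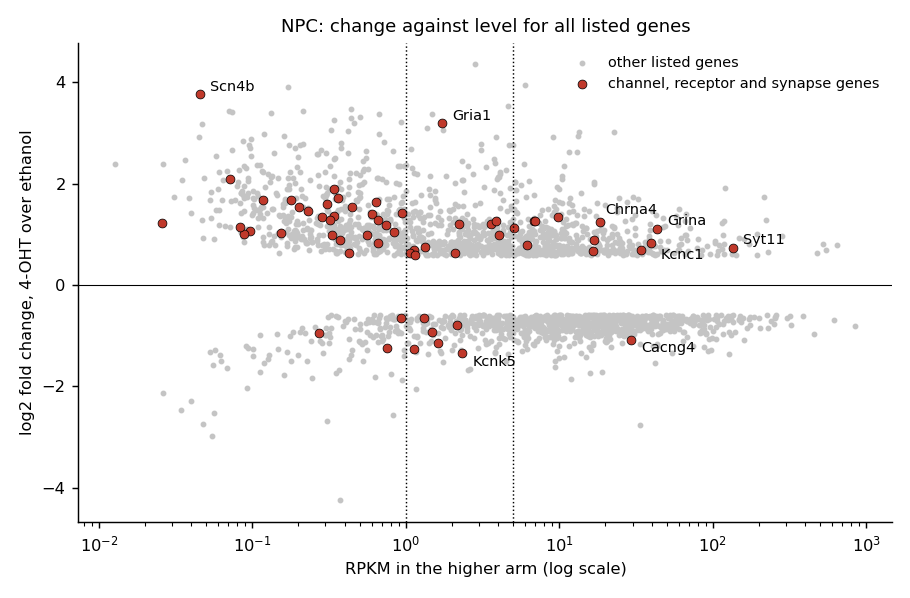
Each point is a gene listed in NPC, placed by its RPKM in the higher arm (log axis) and its log2 fold change of 4-OHT over ethanol, with the channel, receptor and synapse genes in red and dotted lines at 1 and 5 RPKM. No point lies near 0 because the table lists changes over 1.5-fold, and Cacng4 is the only red point below 0 to the right of 5 RPKM.

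The genes at 5 RPKM or more came from many families. In the authors' deposited table Syt11, a synaptotagmin gene, rose from 81.0 to 135 RPKM (log2 fold change 0.74, p = 4.35e-06) and was the most abundant. Kcnc1, which encodes the pore of a fast voltage-gated potassium channel, rose from 22.0 to 39.3 RPKM (log2 fold change 0.84, p = 4.75e-08), per the authors' deposited table. Grina rose from 20.3 to 43.6 RPKM (log2 fold change 1.10, p = 6.22e-15), per the authors' deposited table. Glrx rose from 21.3 to 34.1 RPKM (log2 fold change 0.68, p = 2.85e-06), per the authors' deposited table. The others included Chrna4, Gria3, Gria4, Scn3b, Cacng4, Cacng5, Kcnk1 and Kcnip1, whose values follow by family.

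Markers of neurons and glia were listed higher beside these genes. Among all listed genes 56.6% were higher and 73.7% met the bound on the adjusted Cuffdiff p. Under 1 RPKM in both arms, where Neurod1, Stmn2, Gjb6 and Mag stood, 80.6% of all listed genes were higher. Of 20 neuron markers 6 were listed and all 6 were higher, Tubb3, Elavl3, Mapt, Nefl, Neurod1 and Stmn2, of which 4 met the bound, with a summed level of 13.6 RPKM with ethanol and 24.3 with 4-OHT, per the authors' deposited table. Of 9 astrocyte markers 5 were listed, all higher and 4 within the bound, with sums of 79.2 and 138.6 RPKM, and of 11 oligodendrocyte lineage markers 4 were listed, all higher and all within the bound, with sums of 7.58 and 21.8 RPKM, per the authors' deposited table. The single listed marker of 10 for progenitors, Hes5, went from 15.8 to 4.77 RPKM, per the authors' deposited table. Of 5 endothelial markers, Flt1 and Tek were listed, both higher but neither within the bound, with sums of 0.146 and 0.258 RPKM, per the authors' deposited table, and the fibroblast, muscle and microglia lists had 0 listed genes. No listed marker stood at 0 in either arm, and the markers that are not listed have no value here. The part of these cells in the channel and receptor counts was not tested. In bulk RNA a change in the number of cells of a type and a change in RNA per cell cannot be told apart.

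**Figure D3:**
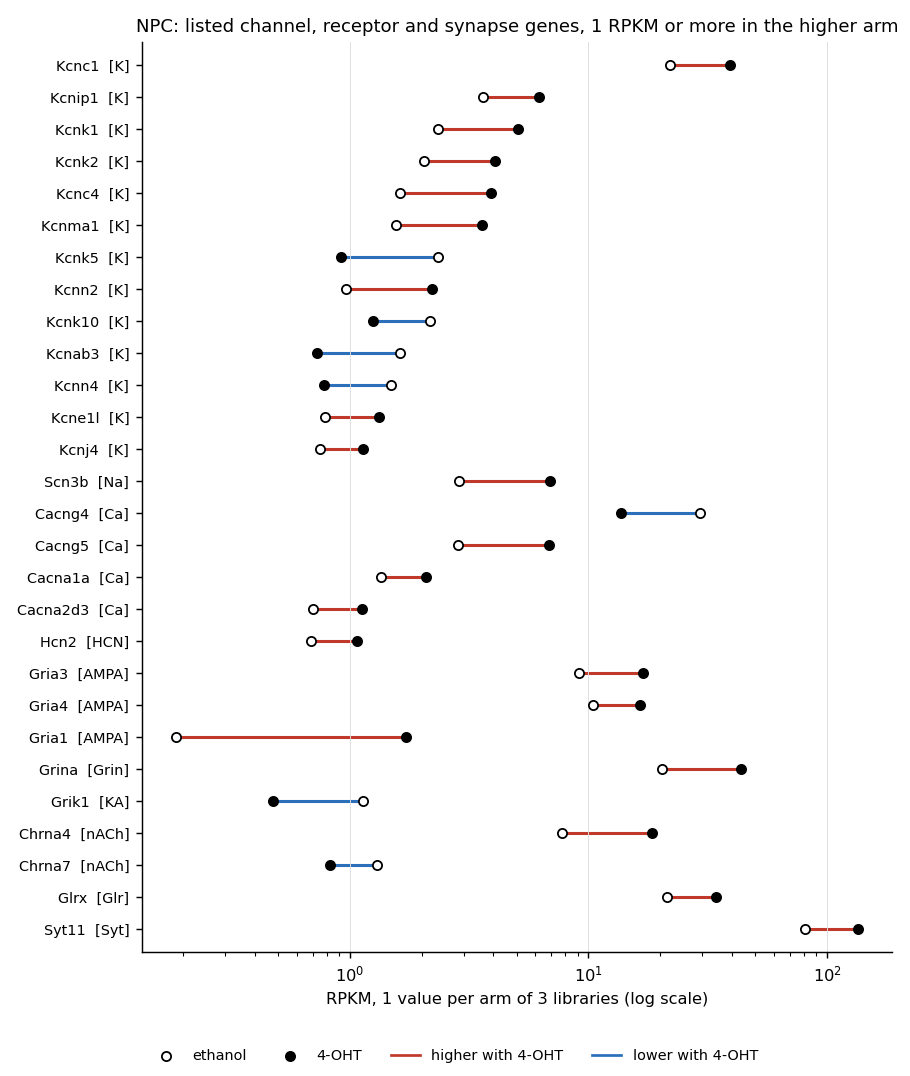
RPKM of 28 channel, receptor and synapse genes listed in NPC whose higher arm reached 1 RPKM or more, on a log axis, with ethanol as open and 4-OHT as filled circles, 1 value per arm, and the family in brackets. Red lines mark the 21 genes that were higher with 4-OHT and blue lines the 7 that were lower.

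AMPA receptors, which carry fast excitatory currents, had 3 of their 4 genes listed, and all 3 rose. Gria1 rose from 0.188 to 1.73 RPKM (log2 fold change 3.20, p printed as 0), per the authors' deposited table. That change ranks 5 among the 824 higher genes that reached 1 RPKM, a level that Gria1 passed only through its own rise. With 0.1 RPKM added to both arms the log2 fold change of Gria1 was 2.67, and with 1 RPKM added 1.20. Gria3 rose from 9.13 to 16.9 RPKM (log2 fold change 0.89, p = 9.09e-11), per the authors' deposited table. Gria4 rose from 10.4 to 16.5 RPKM (log2 fold change 0.66, p = 7.74e-05), per the authors' deposited table. Gria1 had the largest fold change but stayed far below the others in level: it made up 0.95% of the summed RPKM of the 3 genes with ethanol and 4.93% with 4-OHT. The sum itself went from 19.8 to 35.1 RPKM.

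Among genes of auxiliary subunits of these receptors, Cacng4 and Cacng5 went in opposite directions. Cacng4 and Cacng5 are named as calcium channel gamma subunits, but encode transmembrane AMPA receptor regulatory proteins (TARPs). Cacng4 fell from 29.3 to 13.7 RPKM (log2 fold change -1.09, p = 3.07e-11), per the authors' deposited table, the only fall among the 13 abundant genes. Cacng5 rose from 2.83 to 6.85 RPKM (log2 fold change 1.27, p = 3.40e-14), per the authors' deposited table. The RPKM ratio of Cacng4 to Cacng5 was 10.3 with ethanol and 2.0 with 4-OHT.

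Genes of other glutamate receptors were low. The kainate receptor gene Grik1 fell from 1.14 to 0.477 RPKM (log2 fold change -1.25, p = 3.70e-05), per the authors' deposited table. Grin2a, an NMDA receptor subunit gene, rose from 0.0840 to 0.232 RPKM, per the authors' deposited table.

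Acetylcholine and serotonin receptor genes were split. Chrna4, a neuronal nicotinic subunit gene, rose from 7.77 to 18.5 RPKM (log2 fold change 1.25, p printed as 0), per the authors' deposited table. Chrna7, which encodes the subunit of another neuronal nicotinic receptor, was listed lower, from 1.31 to 0.827 RPKM (log2 fold change -0.66, p = 0.0142), per the authors' deposited table, and did not meet the bound on the adjusted p. The ratio of Chrna4 to Chrna7 was 5.95 with ethanol and 22.3 with 4-OHT. Chrng, the gamma subunit gene of the fetal muscle receptor, was listed lower from 0.274 to 0.141 RPKM, per the authors' deposited table. Among serotonin receptors Htr2a rose from 0.228 to 0.604 RPKM and Htr1b fell from 0.757 to 0.319 RPKM, per the authors' deposited table. Htr3a, the ion channel among serotonin receptor genes, was listed lower, from 0.931 to 0.595 RPKM, per the authors' deposited table. The single GABA receptor gene was Gabrr2, listed higher from 0.282 to 0.559 RPKM, per the authors' deposited table.

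Promoter windows of RefSeq (build GRCm38.p6, 250 bases before to 50 after the start of a gene) were matched to 37 of the 64 genes. Of them, 31 were higher and 6 lower with 4-OHT in NPC. Each window was searched on both strands for the E-box CACGTG, the GC box GGGCGG, the TATA box TATAAA, the cAMP response element TGACGTCA, and the RE1 and p53 response elements, none of which contains another. The E-box was in 3 of the 6 lower genes, Chrna7, Kcnk5 and Kcnn4, and in 0 of the 31 higher genes. Of these 3 lower genes only Kcnk5 met the bound on the adjusted Cuffdiff p. An E-box was in 11.1% of the 1688 listed genes with a window and in 8.09% of all 27025 genes. A GC box was in 18 of the 31 higher and 4 of the 6 lower genes, beside 67.1% of listed genes and 38.2% of all genes. The TATA box was in the higher gene Kcnj15 alone, beside 10.7% of listed and 15.7% of all genes. No window of these 37 genes held the cAMP response element (3.38% of listed and 2.0% of all genes), the RE1 element (0.0592% and 0.0777%) or the p53 element (0% and 0.0111%). A match describes letters and does not show that a factor binds there.

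The 250 bases before the start are shown for Chrna4 and Chrna7, receptor genes listed in opposite directions, for Kcnc1, the most abundant potassium channel gene listed, and for Kcnn4, the other gene with the E-box in these bases (that of Kcnk5 lies at or beyond the start). Capitals mark the GC box and the E-box on either strand.
Chrna4, GRCm38.p6 chr2:181039178-181039427, minus strand: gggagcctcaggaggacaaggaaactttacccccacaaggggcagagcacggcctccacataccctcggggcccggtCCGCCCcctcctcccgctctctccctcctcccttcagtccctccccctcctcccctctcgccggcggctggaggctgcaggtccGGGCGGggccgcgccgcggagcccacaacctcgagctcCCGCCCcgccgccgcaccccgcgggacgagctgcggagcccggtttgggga
Kcnc1, GRCm38.p6 chr7:46396218-46396467, plus strand: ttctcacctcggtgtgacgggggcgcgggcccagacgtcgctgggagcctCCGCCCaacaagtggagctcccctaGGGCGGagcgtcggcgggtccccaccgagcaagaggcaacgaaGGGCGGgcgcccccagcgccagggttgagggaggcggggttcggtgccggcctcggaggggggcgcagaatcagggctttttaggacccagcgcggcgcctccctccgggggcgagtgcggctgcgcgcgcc
Chrna7, GRCm38.p6 chr7:63212527-63212776, minus strand: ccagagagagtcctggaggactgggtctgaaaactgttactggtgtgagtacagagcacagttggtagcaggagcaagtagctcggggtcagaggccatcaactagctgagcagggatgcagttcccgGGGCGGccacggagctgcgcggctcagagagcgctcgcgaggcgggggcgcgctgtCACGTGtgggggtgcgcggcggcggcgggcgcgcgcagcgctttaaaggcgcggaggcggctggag
Kcnn4, GRCm38.p6 chr7:24370013-24370262, plus strand: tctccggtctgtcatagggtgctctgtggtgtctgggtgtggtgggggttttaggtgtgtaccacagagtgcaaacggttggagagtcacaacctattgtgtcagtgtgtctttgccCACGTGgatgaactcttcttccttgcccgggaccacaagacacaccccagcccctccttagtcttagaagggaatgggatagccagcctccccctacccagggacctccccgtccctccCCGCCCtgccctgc
Chrna4 and Kcnc1 each had 3 GC boxes and 0 E-boxes in these bases, with a GC content of 74.4% in both. Chrna7 and Kcnn4 each had 1 of either motif, with GC contents of 67.2% and 58.8%.

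Potassium channels were the largest family, with 26 of 94 annotated genes listed, 22 higher and 4 lower, beside 56.6% higher among all listed genes. Of the 26, 18 met the bound on the adjusted Cuffdiff p. In both arms 13 were under 1 RPKM, a level at which 80.6% of all listed genes were higher. All 8 listed pore genes of voltage-gated channels were higher, with log2 fold changes from 0.84 to 1.73, and most of them were under 1 RPKM in both arms. Besides Kcnc1, its relative Kcnc4 rose from 1.63 to 3.89 RPKM (log2 fold change 1.26, p = 1.29e-10), per the authors' deposited table. Kcnc2 was listed higher, from 0.0440 to 0.0879 RPKM, per the authors' deposited table. Kcna1, a delayed rectifier gene, rose from 0.0366 to 0.117 RPKM (log2 fold change 1.68, p = 1.23e-05), per the authors' deposited table. Kcna4, an A-type channel gene, rose from 0.110 to 0.364 RPKM (log2 fold change 1.73, p = 2.64e-07), per the authors' deposited table. Kcnq3, which contributes to the M-current, rose from 0.269 to 0.657 RPKM, per the authors' deposited table. Kcnd1 (0.167 and 0.330 RPKM) and Kcng4 (0.0376 and 0.0830 RPKM), a subunit that modifies other channels, were listed higher without meeting the bound, per the authors' deposited table.

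Two-pore channels, which carry the background potassium current that sets the resting potential, were split into 4 higher and 2 lower genes. Kcnk1 rose from 2.34 to 5.07 RPKM (log2 fold change 1.12, p = 8.46e-09), per the authors' deposited table. Kcnk5 started at the same level and fell from 2.34 to 0.916 RPKM (log2 fold change -1.35, p = 9.78e-10), per the authors' deposited table. Their ratio, Kcnk1 over Kcnk5, went from 1.00 to 5.53, and Kcnk5 ranks 19 among the 918 lower genes that reached 1 RPKM. Kcnk2 and Kcnk10, a pair of closely related mechanosensitive channel genes, also went apart. Kcnk2 rose from 2.05 to 4.05 RPKM (log2 fold change 0.98, p = 8.25e-07), per the authors' deposited table. Kcnk10 fell from 2.17 to 1.25 RPKM (log2 fold change -0.79, p = 0.00055), per the authors' deposited table, and the ratio of Kcnk2 to Kcnk10 went from 0.946 to 3.22. Kcnk3, an acid-sensitive member, rose from 0.113 to 0.286 RPKM, per the authors' deposited table. Kcnk13 rose from 0.0929 to 0.343 RPKM (log2 fold change 1.89, p = 3.10e-05), per the authors' deposited table.

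Of 6 channel genes gated by calcium or sodium ions, 5 were higher, beside 56.6% of all listed genes. Under 1 RPKM in both arms, where Kcnn1, Kcnt1 and Kcnt2 stood, 80.6% of all listed genes were higher. From 1 to 5 RPKM in the higher arm, where the others stood, the share was 63.2%. Kcnma1, the large-conductance calcium-activated channel gene, rose from 1.56 to 3.6 RPKM (log2 fold change 1.21, p = 5.54e-12), per the authors' deposited table. Kcnn2, a small-conductance channel gene, rose from 0.964 to 2.22 RPKM (log2 fold change 1.20, p = 1.48e-06), per the authors' deposited table. Kcnn4, the intermediate-conductance member of that family, was listed lower, from 1.49 to 0.784 RPKM (log2 fold change -0.93, p = 0.00524), per the authors' deposited table. Kcnn1 was listed higher from 0.371 to 0.660 RPKM, per the authors' deposited table. Of the sodium-activated channel genes, Kcnt1 rose from 0.204 to 0.636 RPKM (log2 fold change 1.64, p = 4.46e-05), per the authors' deposited table. Kcnt2 rose from 0.153 to 0.446 RPKM (log2 fold change 1.55, p = 2.66e-06), per the authors' deposited table.

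All 3 listed inward rectifier genes were higher, each at a low level. Under 1 RPKM in both arms, where Kcnj11 and Kcnj15 stood, 80.6% of all listed genes were higher. Kcnj11, the pore of the ATP-sensitive channel, rose from 0.132 to 0.320 RPKM, per the authors' deposited table. Kcnj4 was listed higher, from 0.754 to 1.14 RPKM (log2 fold change 0.60, p = 0.0297), per the authors' deposited table. Kcnj15 was listed higher, from 0.0168 to 0.0721 RPKM (log2 fold change 2.10, p = 0.00472), per the authors' deposited table. Among auxiliary subunits Kcnip1, a calcium-binding partner of A-type channels, rose from 3.61 to 6.2 RPKM (log2 fold change 0.78, p = 2.81e-05), per the authors' deposited table. Kcnab3, a cytoplasmic beta subunit gene, fell from 1.62 to 0.728 RPKM (log2 fold change -1.15, p = 5.76e-06), per the authors' deposited table. Kcne1l was listed higher, from 0.786 to 1.33 RPKM (log2 fold change 0.76, p = 0.0114), per the authors' deposited table.

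All 8 listed sodium channel genes, of 14 annotated, were higher, and 3 of them met the bound on the adjusted Cuffdiff p. Of the 8, 6 were under 1 RPKM in both arms, where 80.6% of all listed genes were higher. The auxiliary beta subunits adjust gating and act in adhesion. Scn3b rose from 2.86 to 6.90 RPKM (log2 fold change 1.27, p = 1.10e-13), per the authors' deposited table. Scn2b was listed higher, from 0.201 to 0.372 RPKM, per the authors' deposited table. Scn4b has the largest log2 fold change of the 61 genes, 3.78 (p = 0.0107), at levels of 0.00331 and 0.0454 RPKM, per the authors' deposited table. That value rests on a ratio of levels near 0: with 0.1 RPKM added to both arms of Scn4b it was 0.49, and with 1 RPKM added 0.06, both below the values of Gria1 under the same settings. The pore genes had at most 0.424 RPKM, per the authors' deposited table. Scn3a rose from 0.134 to 0.343 RPKM, per the authors' deposited table, and Scn2a1, Scn7a and Scn11a were listed higher there with log2 fold changes of 0.62, 1.06 and 1.02.

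Besides the TARP genes, 5 calcium channel genes were listed and all were higher. Of them, 3 were under 1 RPKM in both arms, where 80.6% of all listed genes were higher. Cacna1a, the pore of the P/Q-type channel of presynaptic terminals, rose from 1.36 to 2.09 RPKM (log2 fold change 0.62, p = 0.000228), per the authors' deposited table. Cacna1g, the pore of a T-type channel, rose from 0.354 to 0.948 RPKM, per the authors' deposited table. Cacna1e, that of the R-type channel, rose from 0.0697 to 0.203 RPKM (log2 fold change 1.54, p = 2.02e-07), per the authors' deposited table. Cacna1i, another T-type gene, was listed higher, from 0.0111 to 0.0259 RPKM, per the authors' deposited table. The auxiliary alpha2delta subunit gene Cacna2d3 was listed higher, from 0.702 to 1.13 RPKM (log2 fold change 0.68, p = 0.00446), per the authors' deposited table. The pacemaker channel gene Hcn2 was listed higher, from 0.692 to 1.07 RPKM (log2 fold change 0.63, p = 0.012), per the authors' deposited table.

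The 3 listed synaptotagmin genes were all higher. Of them, 2 were under 1 RPKM in both arms, where 80.6% of all listed genes were higher. Besides Syt11, Syt4 rose from 0.0559 to 0.178 RPKM (log2 fold change 1.67, p = 0.000179), per the authors' deposited table. Syt17 was listed higher, from 0.408 to 0.844 RPKM, per the authors' deposited table. Nrxn3, the single neurexin gene in the expression table, rose from 0.326 to 0.745 RPKM, per the authors' deposited table.

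**Figure D4:**
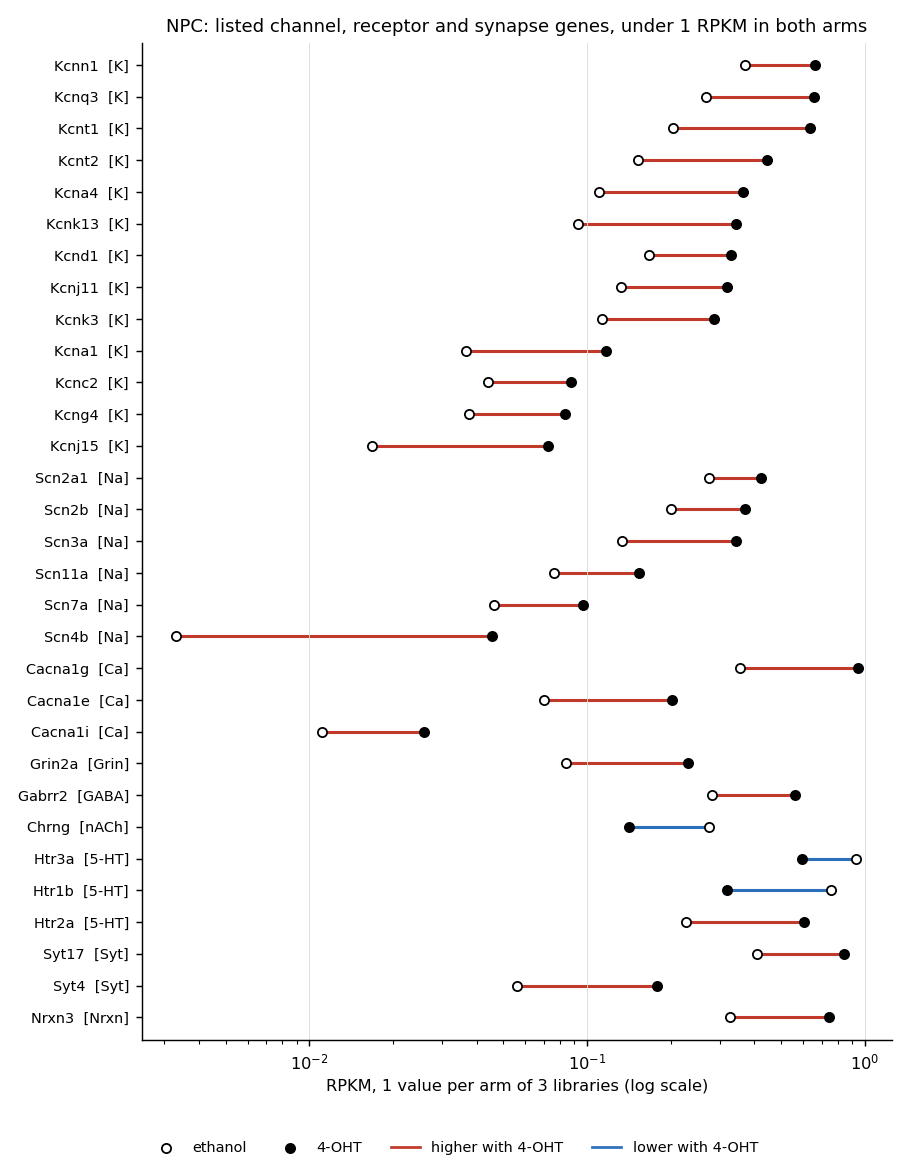
RPKM of 31 channel, receptor and synapse genes listed in NPC that stayed under 1 RPKM in both arms, on a log axis, with ethanol as open and 4-OHT as filled circles, 1 value per arm, and the family in brackets. Red lines mark the 28 genes that were higher with 4-OHT, and blue lines mark Chrng, Htr3a and Htr1b, which were lower.

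The library kit named in the labels keeps no strand, so reads of a gene and of an overlapping antisense gene cannot be told apart. Exons of 13 of the 61 genes share bases with a gene on the other strand in the annotation, over 1.48% to 18.0% of their exon bases. Among them, the share was 8.01% for Kcnk1, 12.2% for Kcnk2, 18.0% for Htr1b and 5.13% for Kcnab3.

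Genes of the synapse outside these symbols were mostly higher in NPC as well. Of 157 such genes 38 were listed, 30 higher and 8 lower, beside 56.6% higher among all listed genes. Their median log2 fold change was 0.89, beside 0.66 without matching for level. Of the 38, 30 met the bound on the adjusted Cuffdiff p, beside 73.7%. Of 41 vesicle and release genes 11 were listed, with 7 higher and 4 lower. The complexin genes Cplx1 and Cplx2 went from 6.33 to 14.1 RPKM and from 5.56 to 9.01 RPKM, and the vesicle protein gene Svop from 1.88 to 11.6 RPKM, per the authors' deposited table. The fusion protein gene Snap25 was listed lower, from 1.30 to 0.770 RPKM, per the authors' deposited table, and so was Rims3, while Sv2c and Rims2 fell. All 7 listed genes of transmitter synthesis and transport, of 23, were higher, and 4 of them met the bound. Under 1 RPKM in both arms, where Gad1, Slc17a8, Ache and Ddc stood, 80.6% of all listed genes were higher. Slc1a2 was also counted among the astrocyte markers. Abat, which breaks down GABA, went from 8.92 to 27.7 RPKM, and the glycine transporter gene Slc6a9 from 15.0 to 24.8 RPKM, per the authors' deposited table. Of 42 scaffold and adhesion genes 6 were listed and 4 of them were higher, led in level by the kinase gene Camk2b, from 33.1 to 65.8 RPKM, per the authors' deposited table. Of 51 channel and receptor partners 14 were listed and 12 of them were higher, including Ank3, the ankyrin that anchors sodium channels, from 1.17 to 4.13 RPKM, the purinergic receptor gene P2rx7, from 3.76 to 11.5 RPKM, and Dpp6, a partner of A-type potassium channels, from 5.37 to 10.2 RPKM, per the authors' deposited table. Neto1, an auxiliary subunit gene of kainate receptors, went from 12.9 to 8.26 RPKM, per the authors' deposited table.

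In MEF 1 gene of these symbols was among the 111 listed, 50.5% of which were higher. It did not meet the bound on the adjusted Cuffdiff p, which 0.901% of the listed MEF genes met. None of the 61 genes listed in NPC was listed in MEF, so for these symbols no change could be compared between the cell types. Of the 157 other synapse genes 4 were listed in MEF, all higher, among them Svop, Ptprd and Ano3, and 0 met the bound. Svop and Ano3 were listed higher in both cell types. In MEF, Svop went from 0.447 to 1.11 RPKM, per the authors' deposited table. Ano3 went from 4.31 to 8.68 RPKM in MEF and from 3.64 to 9.41 in NPC, per the authors' deposited table. The difference of these changes between the cell types was not tested.

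Neuroligins also appear by their splicing. The NPC splicing table holds a cassette exon of Nlgn3, which encodes a postsynaptic adhesion protein, listed in the pairs of libraries with the codes 26 and 28, and the gene is in neither expression table. The third pair is not listed for this event, so its values are unknown, and pairs are listed for their large difference. The sequence is shown because it is what transcripts include less often after 4-OHT in both listed pairs. It was taken from a GENCODE M21 transcript, with the exon in capitals between 20 bases of each neighbor exon.
Nlgn3, exon 3 of 7, GRCm38 chrX:101307075-101307134 and 20 bases on each side, plus strand: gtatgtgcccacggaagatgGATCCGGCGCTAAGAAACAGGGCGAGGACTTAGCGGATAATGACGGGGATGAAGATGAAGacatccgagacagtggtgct
The exon is coding. It was found in the annotation through exon and intron lengths, since the deposited positions are of another build.

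The Nlgn3 exon is 60 bases long, a whole 20 codons, and lies at chrX:98502414-98502473 in mm9, on the plus strand. Its inclusion level, the share of transcripts with the exon after the authors' correction for length, was 0.810 with ethanol and 0.550 with 4-OHT in pair 26. These rest on 330 inclusion and 34 exclusion reads in the ethanol library and on 145 and 52 in the 4-OHT library, with 95% Wilson intervals of 0.750 to 0.858 and 0.472 to 0.626. In pair 28 the level was 1 with ethanol, from 255 inclusion and 0 exclusion reads, and 3 exclusion reads would give 0.974. With 4-OHT it was 0.632 in that pair, from 137 and 35 reads (interval 0.543 to 0.713). Both libraries with 4-OHT were below both with ethanol. The means were 0.905 ± 0.134 (SD, n = 2) and 0.591 ± 0.058 (SD, n = 2). The deposited p-values of the pairs were 2.72e-05 and 1.44e-12, which compare reads of 2 libraries and not replicates. Of the 135 skipped exon events in the NPC table, 62.2% were less included with 4-OHT. The intervals cover counting error only, and with 2 libraries per arm no test over libraries was run.

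**Figure D5:**
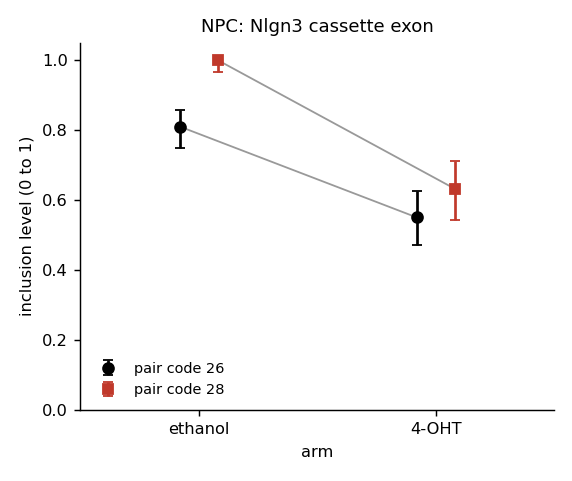
Inclusion level of the Nlgn3 exon in each listed NPC library, by arm, with 95% Wilson intervals of the reads and a line joining the libraries of a pair code. The levels with 4-OHT (0.550 and 0.632) lie below those with ethanol (0.810 and 1).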

How the data were processed

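The tools named were CASAVA 1.8, TopHat2 2.03, Bowtie2 2.0.0.6 and Cuffdiff 2.02, with the genome build mm9, per the submitters' processing notes. No splicing tool is among these, but the deposited splicing tables are labelled mats, with no version. The authors deposited 1 RPKM value per arm, the log2 of the ratio of both arms and an unadjusted p-value, per the file headers. The splicing tables hold the count of inclusion and exclusion reads per library as deposited by the authors, with the inclusion level as a fraction and a p-value per pair.

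Genes were selected by symbol, with no other test than the authors'. The bound on the adjusted p took the Benjamini-Hochberg adjustment of the deposited p over the listed genes with 55418 names counted as tested. In simulated data it never fell under the true adjusted p. That follows by construction, since every simulated p under 0.05 was listed, and the simulation had no fold change minimum. Read intervals are Wilson intervals (95%) scaled by the length factor of the event. Nothing says that replicates were separate cultures. Alternatives were a p under 0.01, an absolute log2 fold change of at least 1, at least 1 or 5 RPKM, pseudocounts, read minimums and single pairs. The members, gene lists and motifs were chosen with earlier results of these data known. Some listed genes are not reported here, and every other one is named. The fold change and p stand beside both levels for the reported genes of these symbols that reached 1 RPKM, and for those reported of the 10 others with the largest fold change. Bins of level, by the higher arm and by the mean of both arms, were added after seeing the data. Python 3.11.15, pandas 2.3.3 and scipy 1.17.1 were used.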

Additional observations from a re-analysis of the deposited data

How the results depend on the processing

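Of the 61 NPC genes, 49 had a Cuffdiff p under 0.01, with 42 higher and 7 lower, where 55.1% of all listed genes were higher. An absolute log2 fold change of at least 1 left 33 higher and 5 lower, where 78.7% of all listed genes were higher. With a minimum of 1 RPKM for the higher arm there were 22 higher and 7 lower genes (47.3% of all listed genes higher), and with 5 RPKM, 12 and 1 (39.5%). Genes can pass that minimum through their own rise. By the mean of both arms, chosen after seeing the data, there were 18 and 6 at 1 RPKM (45.7%) and 8 and 1 at 5 RPKM (38.1%). With the listed genes alone counted as tested, all 61 NPC genes and 1 MEF gene met an adjusted Cuffdiff p of 0.05. With 55418 counted the numbers were 40 and 0. The 1 gene of these symbols listed in MEF is lost at a p under 0.01, at an absolute log2 fold change of at least 1 and at a minimum of 5 RPKM, each of which leaves 0 genes. A pseudocount of 1 RPKM lowered the absolute log2 fold change by over 1.5 times in 46 of 62 listed values, and a pseudocount of 0.1 RPKM in 16. The same amount added to both arms cannot turn a direction.

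Of the 2 splicing events, 0 are listed in all 3 pairs, and both have at least 20 reads in every listed library. The pair codes match no replicate label, and 2 events are too few to check whether they pair libraries. With the pair code as a replicate block the mean change of the Nlgn3 inclusion level was -0.314, which equals the unpaired difference by construction. Over single pairs it ranged from -0.368 to -0.26. The planned comparison of changes between cell types was not run, since no gene of these symbols was listed in both. Depth behind the RPKM values is unknown, which limits what the genes under 1 RPKM can show.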

Other observations

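The distance from start to end of a gene, its span, was read from RefSeq (GRCm38.p6), and its differences were not tested. The median span was 54.5 kb for the 51 higher and 28.6 kb for the 10 lower genes in NPC, beside 29.1 kb for all listed higher and 19.7 kb for all listed lower genes. Promoter windows had a median GC content of 60.2% for the 31 higher and 59.5% for the 6 lower genes with a window, beside 60.3% for all listed genes with one.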
